A study of Homo sapiens with 11 samples.

Results

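CYP4 is a family of cytochrome P450 genes, and 7 of its members were followed here across every group of a breast cancer cell experiment: CYP4Z1, CYP4X1, CYP4B1, CYP4F3, CYP4F11, CYP4F12 and CYP4V2. Each was taken through the probe set of the array (a group of short probes for 1 transcript) whose annotation names that gene alone, and each had 1 such probe set. They are 7 of the 22395 genes that a probe set names alone, and 6 of them were among the 15865 genes bright enough to be tested. The family was chosen by the values of CYP4Z1, which had been among the most lowered genes with TNF and with apigenin in an earlier look at the same arrays, so its differences from control are given as a description, without a p-value. The other members were chosen as its relatives.

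The cells were MDA-MB-468, an established human line from a pleural effusion of a triple-negative breast cancer, which lacks oestrogen and progesterone receptors and amplified ERBB2. Cells were grown in medium with serum and exposed for 24 h to TNF, an inflammatory cytokine, at 40 ng/ml (3 arrays), to apigenin, a plant flavone, at 40 µM (2 arrays), to TNF plus apigenin at those doses (3 arrays), or to neither (control, labelled as untreated, 3 arrays). The agents were prepared in a buffered salt solution. Total RNA was hybridised to Human Gene 2.1 ST arrays, and all values below are log2 brightness as deposited. A value near 2.53, the median over all probe sets, is close to background, and for such genes no fold is given. Levels are set against each other only within a gene, since probe sets differ in brightness for the same amount of RNA. The labels do not say whether replicates were separate cultures, so the spread behind each p-value may be technical. In whole-culture RNA, fewer cells that make a transcript and less transcript per cell cannot be told apart.

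Arrays of 1 group correlated at 0.969 to 0.987. Array apigenin 1 stood apart, with a median of 3.89 and an interquartile range of 2.4 over the tested genes, against medians of 4.08 to 4.32 and interquartile ranges of 2.63 to 2.91 on the other arrays. Of the 7 epithelial and line markers examined, all were bright enough to be tested, among them EGFR at 10.53 to 11.14 and EPCAM at 8.83 to 9.38. ESR1 lay at 1.93 to 2.72 and PGR at 1.40 to 1.66, both about background. Among markers of other cells, the leukocyte genes PTPRC and CD3E reached at most 1.61 and 1.81, and neither was bright enough to be tested. Of 4 macrophage genes 3 were tested, CD68 at 4.67 to 6.0, CSF1R at 3.92 to 4.57 and MARCO at 1.93 to 3.71, while CD163 reached 2.05. Of 3 fibroblast genes COL1A1 was tested, at 3.10 to 3.56, while PDGFRB reached 2.42 and DCN 1.84. Of 2 endothelial genes CDH5 was tested, at 2.18 to 4.64, while VWF reached 2.01. None of the macrophage or fibroblast genes was called in any of the 6 tests (limma, at most 1 in any test at an unadjusted p under 0.05). Of all tested genes, 0.0252% to 3.66% were called in those tests. The calls of CDH5 are given further on, and the part of these cells in the results was not tested.

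CYP4 enzymes insert oxygen at or near the methyl end of fatty acids and related lipids, a step called omega-hydroxylation. It feeds omega-oxidation, inactivates leukotrienes and other eicosanoids, and makes the vasoactive hydroxylated form of arachidonic acid. Most family members are known from liver, kidney, gut and skin; CYP4Z1 is known for its expression in the mammary gland and in breast carcinoma. Like other microsomal P450s, these enzymes take electrons from POR, the P450 reductase. CYP4B1, CYP4X1 and CYP4Z1 lie in 1 cluster on chromosome 1 together with CYP4A11, CYP4A22 and the CYP4Z1 pseudogene CYP4Z2P, the CYP4F genes lie on chromosome 19, and CYP4V2 lies on chromosome 4.

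The 250 bases upstream of the RefSeq starts of the 3 chromosome 1 members are shown because these 3 genes carry the differences described below. All are on the plus strand of GRCh38.p14: CYP4Z1 at chr1:47066981-47067230, CYP4X1 at chr1:46961114-46961363 for its first listed start and chr1:47023419-47023668 for its second, and CYP4B1 at chr1:46798796-46799045. Capitals mark matches, on either strand, to the NF-kB consensus, the AP-1 site TGANTCA, the xenobiotic response element core GCGTG and the steroid receptor half-site AGAACA.
CYP4Z1: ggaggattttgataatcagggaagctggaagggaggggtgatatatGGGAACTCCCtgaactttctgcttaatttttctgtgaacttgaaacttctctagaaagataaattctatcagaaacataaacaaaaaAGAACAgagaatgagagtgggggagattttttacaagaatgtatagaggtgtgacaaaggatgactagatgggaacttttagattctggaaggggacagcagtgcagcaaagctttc
CYP4X1 first start: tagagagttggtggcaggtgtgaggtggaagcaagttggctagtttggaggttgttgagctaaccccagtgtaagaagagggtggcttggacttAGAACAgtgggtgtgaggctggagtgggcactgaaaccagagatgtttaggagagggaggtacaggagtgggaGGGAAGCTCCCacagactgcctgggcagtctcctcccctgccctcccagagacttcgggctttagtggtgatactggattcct
CYP4X1 second start: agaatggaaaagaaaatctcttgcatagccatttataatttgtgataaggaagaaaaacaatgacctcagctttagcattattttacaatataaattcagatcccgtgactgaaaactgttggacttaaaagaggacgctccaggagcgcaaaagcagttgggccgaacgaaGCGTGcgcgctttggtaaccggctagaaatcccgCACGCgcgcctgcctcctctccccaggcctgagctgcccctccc
CYP4B1: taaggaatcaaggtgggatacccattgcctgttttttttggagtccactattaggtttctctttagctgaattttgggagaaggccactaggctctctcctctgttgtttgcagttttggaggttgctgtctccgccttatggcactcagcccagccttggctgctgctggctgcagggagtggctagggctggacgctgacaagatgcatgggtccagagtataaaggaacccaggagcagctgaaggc
The CYP4Z1 window holds a 10-base stretch that matches the NF-kB consensus on both strands, starting 204 bases before the start, and a steroid half-site starting 117 bases before it. In the first CYP4X1 window, 2 overlapping NF-kB matches, 1 on each strand, start 83 and 82 bases before the start and a steroid half-site starts 156 bases before it. The second CYP4X1 window has xenobiotic core matches starting 78 bases before the start on the plus strand and 44 bases before it on the minus strand, and the CYP4B1 window has none of the 4 motifs. Over the 35116 RefSeq promoter windows of the same length, the NF-kB consensus occurs in 9.96%, AGAACA in 12.4%, GCGTG in 32.2% and TGANTCA in 6.57%. These matches describe the letters and were not tied to any measurement. GC content is 39.2% in the CYP4Z1 window, 55.2% and 48% in the CYP4X1 windows and 52% in the CYP4B1 window.

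CYP4Z1, an enzyme that hydroxylates fatty acids within the chain and is known from mammary tissue, was lower in all 3 treatments than in control. Its level was 4.92, 3.14 and 3.4 on the TNF arrays, 3.41 and 3.68 on the apigenin arrays, and 3.38, 3.42 and 2.70 with TNF plus apigenin, against 5.62, 5.69 and 5.41 on the control arrays. No treated array reached the lowest control array, and the 3 treated groups overlapped one another. Array TNF 1 lay well above the other TNF arrays and closest to control. The means were 3.82 ± 0.96 with TNF (SD, n = 3), 3.54 ± 0.19 with apigenin (n = 2), 3.17 ± 0.41 with both (n = 3) and 5.57 ± 0.15 in control (n = 3). On the log2 scale the change from control was -1.75 with TNF (limma standard error 0.35), -2.03 with apigenin (0.39) and -2.40 with both (0.35); these 3 differences share the control arrays. Leaving out TNF 1 moved the TNF change to -2.30, and leaving out TNF 2 or TNF 3 moved it to -1.41 or -1.54. Leaving out apigenin 1 or apigenin 2 gave apigenin changes of -1.89 and -2.16.

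With both agents present, the CYP4Z1 mean differed by -0.65 from that with TNF, and by -0.10 once TNF 1 was left out. It differed by -0.38 from that with apigenin. The log2 changes with TNF and with apigenin add to more than the change with both, by 1.38. The TNF and apigenin arrays in these differences are among those that led to the choice of CYP4Z1, so the differences are descriptions and carry no interval or p-value. The lowest array, at 2.70, is close to the background value, which bounds how far a further decrease could be seen.

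**Figure D1:**
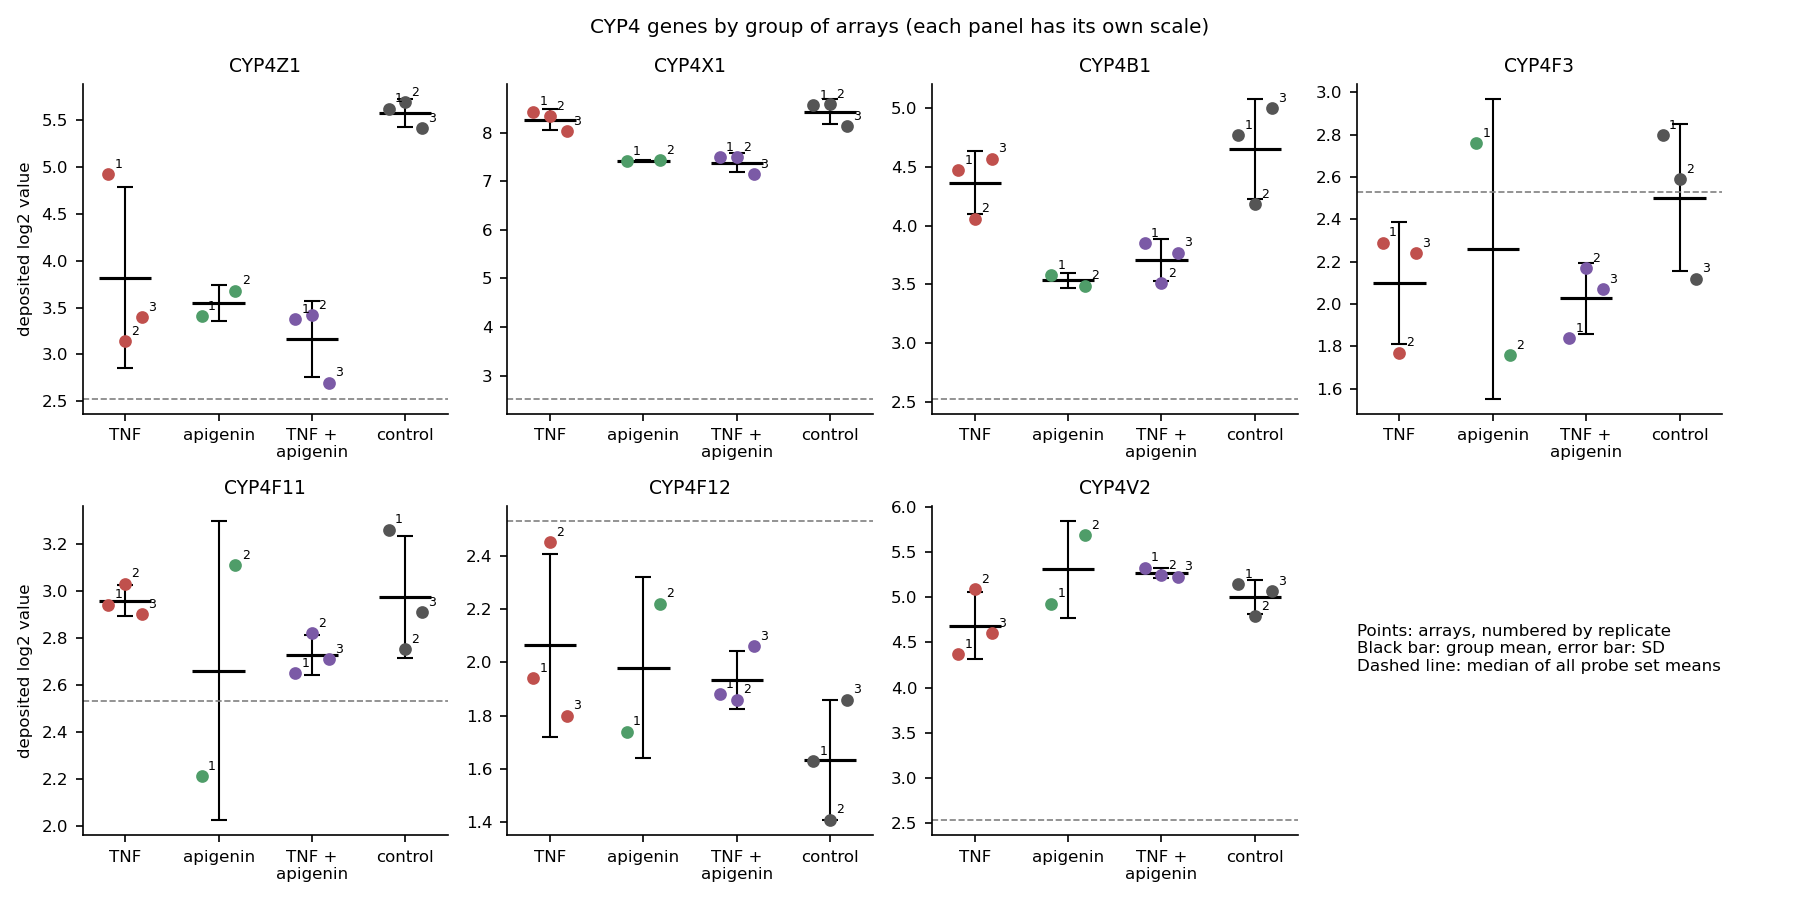
Deposited log2 values of the 7 CYP4 genes on each array, with the 4 groups on the x axis; points are arrays numbered by replicate, black bars are group means with SD, and the dashed line is the median of all probe set means, 2.53. CYP4Z1 is below its control arrays on all 8 treated arrays, CYP4X1 and CYP4B1 are low on the 5 arrays with apigenin, and CYP4F3, CYP4F11 and CYP4F12 range from 1.41 to 3.26.

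A second probe set is annotated to both CYP4Z2P, a transcribed pseudogene copy, and CYP4Z1, so their signals cannot be told apart in it. It read 4.52, 3.01 and 3.18 with TNF, 1.89 and 2.05 with apigenin, and 2.16, 1.84 and 2.0 with both, against 4.22, 4.22 and 4.29 in control. The apigenin arrays, with or without TNF, all lay below the background value of 2.53 while every TNF and control array lay above it, and TNF 1 was again the highest TNF array, here above control. Since the arrays with apigenin lie below that value, no size of change is given for them. The means were 3.57 ± 0.83 with TNF (SD, n = 3) and 4.24 ± 0.04 in control (n = 3).

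CYP4X1, the neighbour of CYP4Z1, codes for an enzyme studied mainly in brain and active on the endocannabinoid anandamide. It was lower wherever apigenin was present and showed no detectable difference with TNF alone. Its level was 8.43, 8.34 and 8.03 with TNF, 7.42 and 7.43 with apigenin, and 7.49, 7.50 and 7.15 with both, against 8.57, 8.58 and 8.14 in control. All 5 arrays with apigenin lay below all 6 arrays without it, and the TNF arrays overlapped the control arrays. Apigenin alone gave a change of -1.0 ± 0.21 (SE; a 2-fold lower level, adjusted p = 0.0162, limma), with means of 7.43 ± 0.01 with apigenin (SD, n = 2) and 8.43 ± 0.25 in control (n = 3). That call was lost without apigenin 1 (change of -1.0) and without control 1 (-0.94, adjusted p = 0.0759, limma). Over all 22 alternatives in processing and arrays, the change ranged from -1.15 to -0.71, and over single arrays left out from -1.15 to -0.93.

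CYP4X1 was also lower when apigenin was added to TNF. The change of TNF plus apigenin against TNF was -0.89 ± 0.19 (SE; 1.85-fold lower, adjusted p = 0.0278, limma). Leaving out TNF 1, TNF 2 or any of the 3 TNF plus apigenin arrays left changes of -0.77 to -0.95 with adjusted p of 0.0736 to 0.143 (limma), so the call rests on all of those arrays. Against control, TNF plus apigenin gave -1.05 ± 0.19 (SE; 2.07-fold lower, adjusted p = 0.00635, limma), a call kept in each of the 11 fits that left out 1 array. TNF alone changed CYP4X1 by -0.16 (95% interval -0.56 to 0.23, adjusted p = 0.947), and the interaction was 0.11 (95% interval -0.48 to 0.71, adjusted p = 0.883).

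CYP4B1 codes for an enzyme known from lung, whose rabbit form activates plant-derived furans into toxins. Like CYP4X1, it was low in both groups that received apigenin. Its level was 4.47, 4.06 and 4.57 with TNF, 3.58 and 3.49 with apigenin, and 3.85, 3.51 and 3.77 with both, against 4.77, 4.18 and 5.00 in control. All arrays with apigenin again lay below all arrays without it, with TNF and control overlapping. The change with apigenin was -1.12 ± 0.24 (SE; adjusted p = 0.0209, limma) and that with both agents against control was -0.94 ± 0.22 (adjusted p = 0.0317, limma).

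Both CYP4B1 calls were fragile. The apigenin call was lost without control 1, control 3, apigenin 1 or apigenin 2, with changes of -0.94 to -1.16 and adjusted p of 0.0514 to 0.124 (limma). The call with both agents was lost without control 1, control 3 or any 1 TNF plus apigenin array, with changes of -0.76 to -1.01 and adjusted p of 0.0546 to 0.142 (limma). Against TNF, TNF plus apigenin gave -0.65 ± 0.22 (SE), which did not pass (adjusted p = 0.22, limma). TNF alone gave -0.28 (95% interval -0.75 to 0.18, adjusted p = 0.879, limma), and TNF plus apigenin against apigenin gave 0.18 (95% interval -0.34 to 0.69, adjusted p = 0.768).

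**Figure D2:**
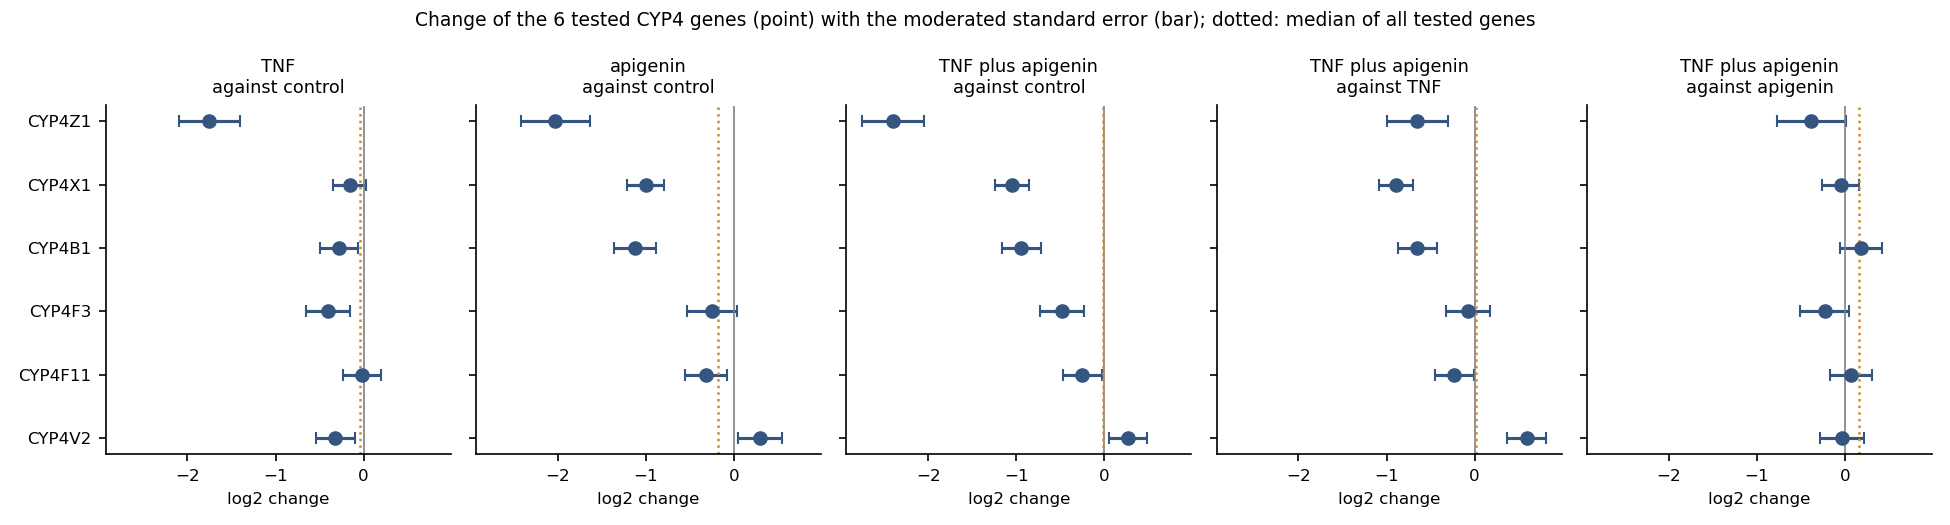
Log2 change of the 6 tested CYP4 genes in the 5 comparisons between groups, with limma standard errors as bars and the median over all tested genes as a dotted line. CYP4Z1 lies between -1.75 and -2.40 in the 3 comparisons with control, CYP4X1 and CYP4B1 lie between -0.94 and -1.12 in the comparisons with control that involve apigenin, and all 6 points lie between -0.38 and 0.18 in the comparison of both agents with apigenin.

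CYP4Z1 was left out of the counts that follow, because its values led to the choice of the family. Over the other 5 tested members, 0 rose and 2 fell with apigenin, namely CYP4X1 and CYP4B1, when 3.66% of all tested genes were called (3.44% lower and 0.221% higher). The median change over the 5 was -0.32, against -0.18 over all genes. That median is the value of CYP4F11, a gene near background whose change was 0.13 without apigenin 1. With both agents against control CYP4X1 and CYP4B1 were called, when 2.82% of all genes were, and the medians were -0.48 over the 5 and -0.02 over all genes. TNF alone called 0 of the 5 (limma; 0 at an unadjusted p under 0.05), when 0.7% of genes were called, with medians of -0.28 and -0.04. TNF plus apigenin against TNF gave 1 call, CYP4X1, when 1.07% of genes were called, with medians of -0.23 and 0.02. The -0.23 is again the value of CYP4F11, so no shift of the family is read from these medians. Neither TNF plus apigenin against apigenin (0.574% of genes called) nor the interaction (0.0252%) called any of the 5 by limma, and at an unadjusted p under 0.05 they held 0 and 0. Counting every CYP4 gene and pseudogene with a probe set of its own, of which there were 13 with 10 tested, added no further call in any comparison.

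The chromosome 1 cluster was next set beside the genes that flank it. The other 2 genes of the cluster that a probe set names alone are CYP4A11 and CYP4A22, which code for a kidney and liver fatty acid omega-hydroxylase and its close copy. CYP4A22 read 4.35, 3.57 and 3.52 with TNF, 3.26 and 3.48 with apigenin, and 3.93, 3.76 and 4.28 with both, against 3.60, 4.06 and 3.90 in control. Its apigenin arrays lay below every other array, with a change of -0.49 ± 0.26 (SE) that did not pass (adjusted p = 0.315, limma), and its level with both agents was not below that with TNF (0.18 ± 0.23, adjusted p = 0.859). CYP4A11 spread from 1.78 to 3.65 over the arrays, with 7 of them below 2.53.

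Of the 5 protein-coding genes on each side, 9 were tested and 0 were called with apigenin (limma, 1 at an unadjusted p under 0.05). Of all tested genes, 3.66% were called. The median change of the 9 was -0.39, against -0.18 over all genes. Without apigenin 1 these medians were -0.13 and -0.04. The gene at an unadjusted p under 0.05 was PDZK1IP1, a small membrane protein gene next to the cluster, at -0.68 ± 0.21 (SE; adjusted p = 0.0879, limma) with apigenin and -0.56 ± 0.19 (adjusted p = 0.224) with TNF plus apigenin against TNF. Without apigenin 1 its apigenin change was -0.62. All 9 flanking changes were closer to 0 than those of the 3 members in both comparisons. That order follows in part from selection, since CYP4Z1 led to the choice of the family and CYP4X1 and CYP4B1 were set apart once called. In TNF plus apigenin against TNF the gap was small, with CYP4B1 at -0.65 ± 0.22 (SE) and CYP4Z1 at -0.10 without TNF 1. The difference between members and flanking genes was not tested.

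**Figure D3:**
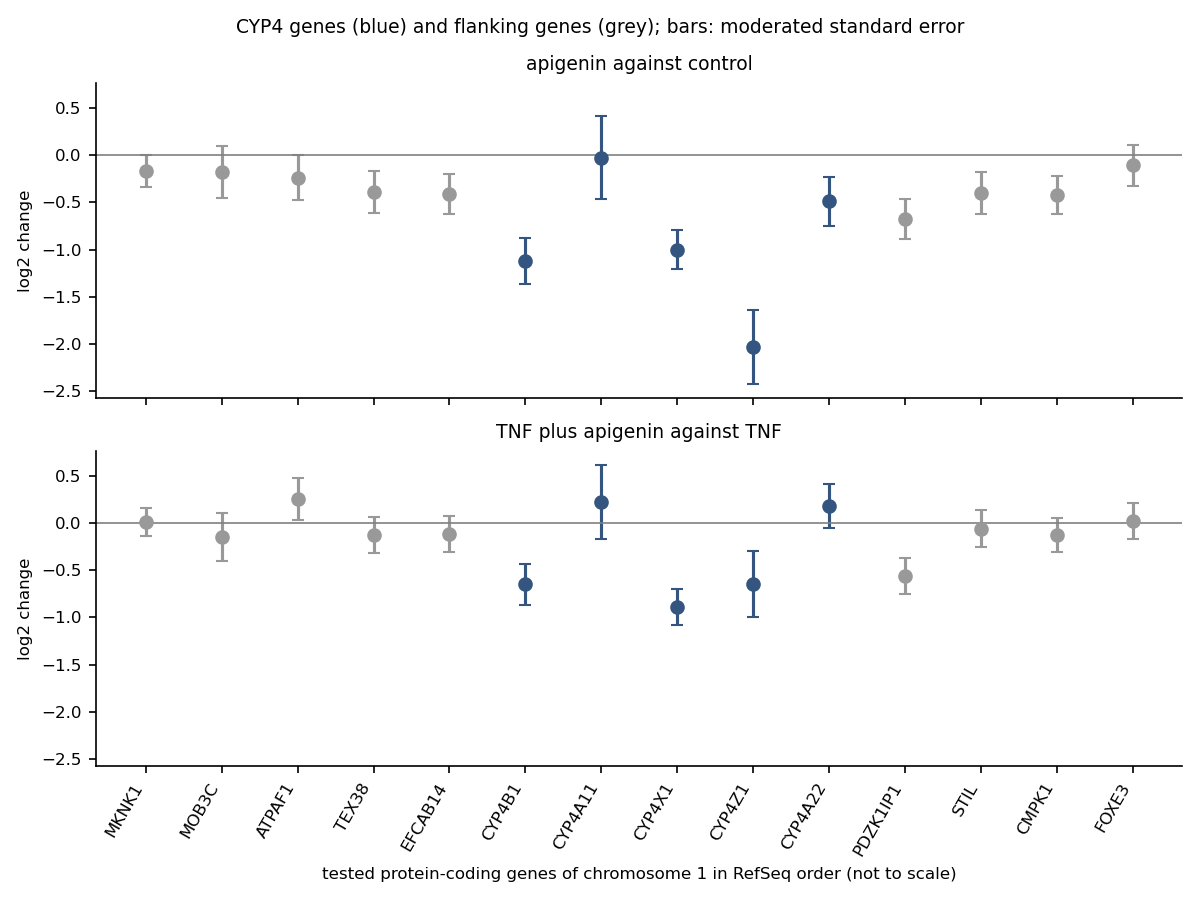
Log2 change of the tested genes in and around the chromosome 1 cluster, in RefSeq gene order along the x axis, with apigenin against control above and TNF plus apigenin against TNF below; bars are limma standard errors. CYP4B1, CYP4X1 and CYP4Z1 are the lowest 3 points in both panels, while CYP4A11 and CYP4A22 (also blue) and the 9 flanking genes (grey) are nearer 0. CYP4Z1 led to the choice of the family, and its change in the lower panel is -0.10 without TNF 1. PDZK1IP1 is close to CYP4B1 there, at -0.56 and -0.65.

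The chromosome 19 members were at or near background in these cells. CYP4F3, which inactivates leukotriene B4, read 2.29, 1.77 and 2.24 with TNF, 2.76 and 1.76 with apigenin, and 1.84, 2.17 and 2.07 with both, against 2.80, 2.59 and 2.12 in control, and only 3 arrays reached 2.53. CYP4F11, which hydroxylates vitamin K and long-chain fatty acids, read 2.94, 3.03 and 2.90 with TNF, 2.21 and 3.11 with apigenin, and 2.65, 2.82 and 2.71 with both, against 3.26, 2.75 and 2.91 in control. Its 2 apigenin arrays differed more from each other than any other pair of arrays of 1 group did for this gene. CYP4F12, a gut and liver enzyme, was not tested, since its highest array was 2.45 and its lowest 1.41. Neither tested gene was called: the largest of their changes from control were -0.48 ± 0.25 (SE; adjusted p = 0.391, limma) for CYP4F3 with both agents and -0.32 ± 0.24 (adjusted p = 0.504, limma) for CYP4F11 with apigenin.

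CYP4V2, a broadly expressed fatty acid hydroxylase whose loss causes a crystalline retinal dystrophy, was the only member whose lowest group was TNF. Its level was 4.37, 5.09 and 4.60 with TNF, 4.93 and 5.69 with apigenin, and 5.33, 5.25 and 5.23 with both, against 5.15, 4.79 and 5.07 in control. The TNF plus apigenin arrays all lay above the TNF and the control arrays, and the TNF and control arrays overlapped. TNF plus apigenin against TNF was 0.59 ± 0.22 (SE; 95% interval 0.11 to 1.07), which did not pass over all genes (adjusted p = 0.312, limma). TNF alone gave -0.32 ± 0.22 (adjusted p = 0.865) and apigenin alone 0.30 ± 0.25 (adjusted p = 0.542). Of the 9 tested genes that flank CYP4V2, TLR3, a receptor for double-stranded RNA, fell with apigenin by 1.32 ± 0.21 (SE, adjusted p = 0.00364, limma), and CYP4V2 did not. Of all tested genes, 3.66% were called with apigenin.

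CYP4F2, a liver enzyme that acts on vitamin K and arachidonic acid, has no probe set of its own here, and a probe set annotated to CYP4F2 and CYP4F3 stands in for both. It read 1.37, 1.41 and 1.52 with TNF, 3.55 and 4.04 with apigenin, and 1.26, 1.41 and 1.66 with both, against 1.35, 1.66 and 2.38 in control. Both apigenin arrays were above background, and all 9 other arrays were below it. This probe set was singled out after its values were seen, so no test is given. The arrays it is set against lie below background, so the difference stated in the closing section is a description and not a measured size of change. The probe set of CYP4F3 alone did not follow it, at 2.76 and 1.76 on the apigenin arrays.

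**Figure D4:**
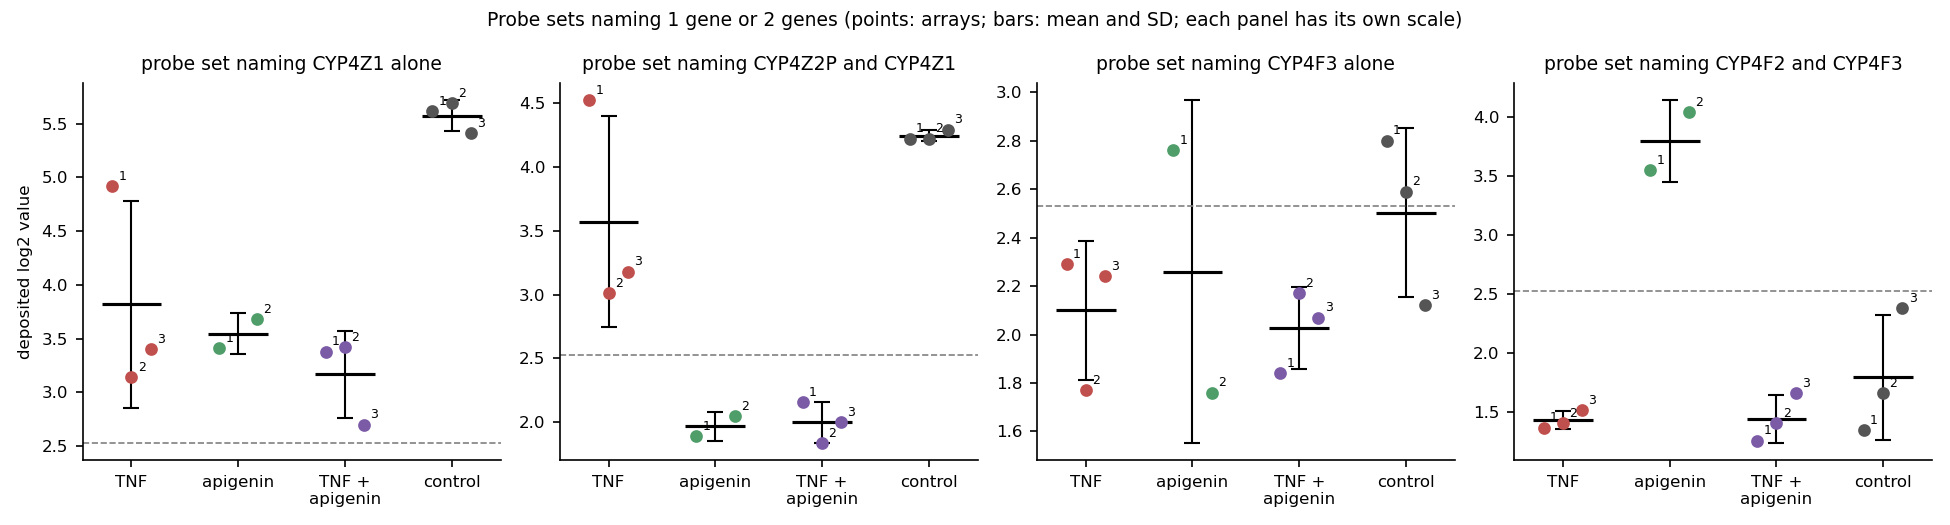
Deposited log2 values by array for the probe sets naming CYP4Z1 alone, CYP4Z2P and CYP4Z1, CYP4F3 alone, and CYP4F2 and CYP4F3; bars are group means with SD and the dashed line is 2.53. The 5 arrays with apigenin fall below the dashed line in the second panel, and only the 2 arrays with apigenin alone rise above it in the fourth.

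The remaining P450 genes were counted in the same way. Of 18 tested genes of families other than CYP1 and CYP4, 1 rose and 0 fell with TNF, and 0 rose and 1 fell with apigenin. With both agents against control 0 were called (limma, 1 at an unadjusted p under 0.05). Of all tested genes, 0.7%, 3.66% and 2.82% were called in these comparisons. With so few genes, the counts are not read as a trait of these families. The gene that rose with TNF was CYP7B1, an oxysterol hydroxylase, at 1.13 ± 0.19 (SE; adjusted p = 0.00829, limma), and TNF plus apigenin lowered it against TNF by 0.94 ± 0.19 (adjusted p = 0.0237). CYP27A1, the sterol hydroxylase of mitochondria, fell with apigenin by 0.96 ± 0.25 (SE; adjusted p = 0.0486, limma). Of the 11 fits that left out 1 array, the CYP7B1 call was lost in 1 with TNF and in 5 in TNF plus apigenin against TNF, and the CYP27A1 call in 6.

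CYP1A1 and CYP1B1, targets of the aryl hydrocarbon receptor, rose with apigenin alone. They are 2 of 3 tested CYP1 genes, and 0.221% of all tested genes were called higher with apigenin. CYP1B1 rose by 0.97 ± 0.18 (SE; adjusted p = 0.0098, limma), a call lost in 1 of the 11 fits without 1 array. The third, CYP1A2, lay at 2.2 to 2.88, about background, and was not called with apigenin (-0.31 ± 0.21, adjusted p = 0.454, limma). CYP1A1 read 3.17, 2.99 and 2.58 with TNF, 4.61 and 4.11 with apigenin, and 3.19, 2.96 and 2.55 with both, against 2.84, 2.73 and 2.33 in control. It rose with apigenin by 1.73 ± 0.25 (SE; adjusted p = 0.00236, limma), and its change in TNF plus apigenin against apigenin was -1.46 ± 0.25 (adjusted p = 0.0146). Like the CYP4F2 and CYP4F3 probe set, CYP1A1 was highest on the 2 arrays with apigenin alone, 1 of which is apigenin 1; without that array the CYP1A1 change was 1.48 (adjusted p = 0.0552, limma).

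**Figure D5:**
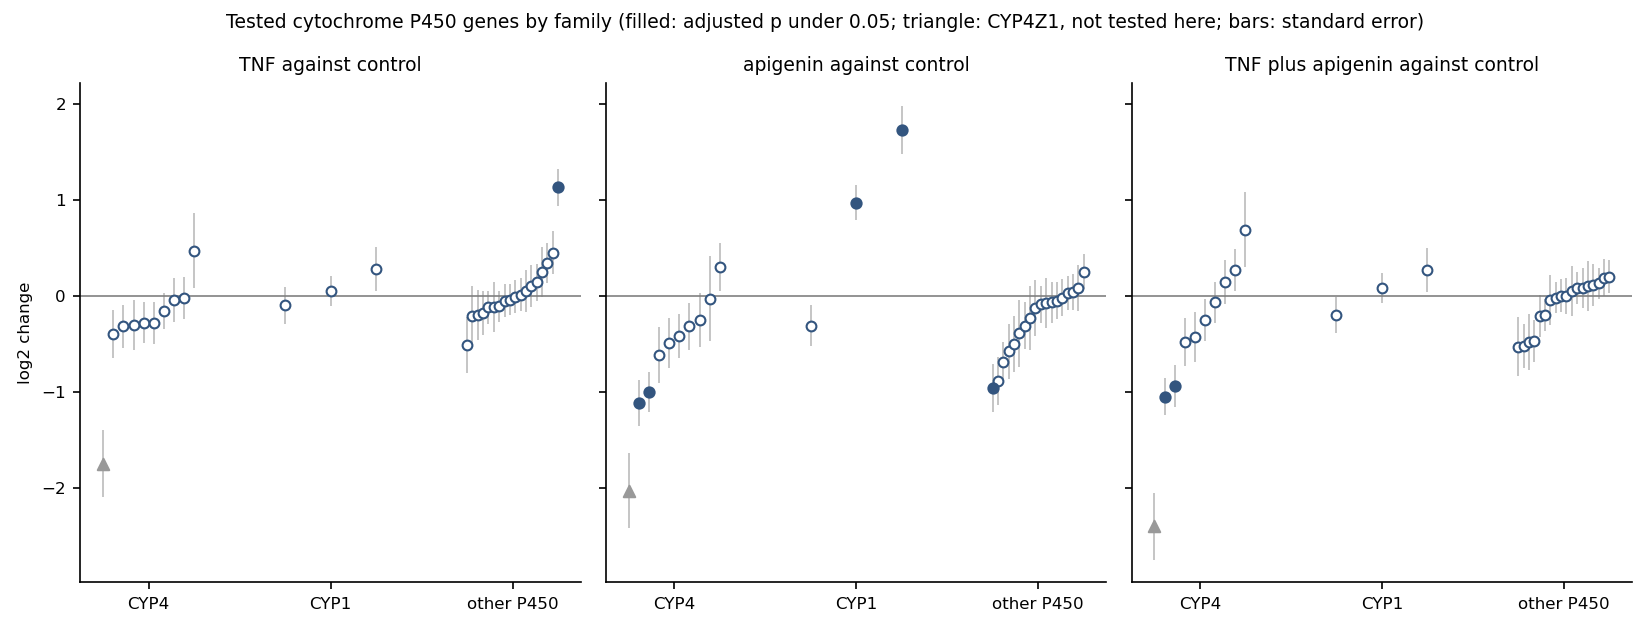
Log2 change of every tested P450 gene with a probe set of its own, by family on the x axis (10 CYP4, 3 CYP1 and 18 other genes), for the 3 comparisons with control; filled circles have an adjusted p under 0.05, the grey triangle is CYP4Z1, whose values led to the choice of the family and which is given without a test, and bars are limma standard errors. The filled circles below 0 are CYP4X1 and CYP4B1 with apigenin and with both agents and CYP27A1 with apigenin, and those above 0 are CYP1A1 and CYP1B1 with apigenin and CYP7B1 with TNF.

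Genes that work with CYP4 enzymes were counted next. Of all tested genes, 0.7% were called with TNF, 3.66% with apigenin, 2.82% with both against control and at most 1.07% in the rest. In lists this short, few or no calls are near those shares and are not read as a trait of these genes. Of 14 tested genes for P450 electron donors and haem synthesis, 0 were called with TNF, with apigenin or with both against control (limma; 0, 3 and 2 at an unadjusted p under 0.05). POR read 4.87, 4.77 and 4.67 with TNF, 4.45 and 4.60 with apigenin, and 4.86, 4.55 and 4.38 with both, against 5.21, 5.16 and 4.74 in control, and its change with apigenin was -0.51 ± 0.21 (SE; adjusted p = 0.187, limma). HMOX1, the haem-degrading oxygenase, rose in TNF plus apigenin against TNF by 0.85 ± 0.18 (SE; adjusted p = 0.0278, limma), a call lost in 5 of the 11 fits without 1 array. Of 10 tested genes that release arachidonic acid or oxidise it by other routes, 0 were called in any of the 6 tests (limma; at most 1 in any test at an unadjusted p under 0.05). Of 11 tested genes of omega-hydroxy fatty acid and peroxisomal oxidation, ALDH3B2, a fatty aldehyde dehydrogenase, fell with apigenin by 1.0 ± 0.22 (adjusted p = 0.0207) and with both agents against control by 1.36 ± 0.19 (SE; adjusted p = 0.00136, limma); the other 10 were not called, and the apigenin call of ALDH3B2 was lost in 3 of the 11 fits without 1 array.

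Transcription factors linked to CYP4 genes or to luminal breast cells were also counted. Of 13 tested, 1 fell with TNF, 1 with apigenin and 3 with both against control, and 0 rose. Of all tested genes, 0.7%, 3.66% and 2.82% were called in these comparisons. The call with TNF and that with apigenin were both SPDEF, which is counted again among the luminal genes below. SPDEF, an ETS factor of secretory epithelium, read 5.96, 6.19 and 5.72 with TNF, 5.31 and 4.85 with apigenin, and 4.62, 4.49 and 4.22 with both, against 7.73, 7.48 and 7.34 in control. Its group means ran in the same order as those of CYP4Z1, its 4 groups did not overlap, and its change in TNF plus apigenin against TNF was -1.51 ± 0.20 (SE; adjusted p = 0.00144, limma). GATA3 and SREBF1 had changes of -1.24 ± 0.23 and -0.82 ± 0.17 with both agents against control (SE; adjusted p = 0.00891 and 0.0199, limma), and the SREBF1 call was lost in 5 of the 11 fits without 1 array. PPARG, a lipid-sensing nuclear receptor, ranged from 3.56 to 4.22 over the arrays and was not called in any comparison.

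Of 7 tested luminal and secretory breast genes, 0 rose and 2 fell with TNF, and 0 rose and 2 fell with apigenin, SPDEF and SCGB2A2 in both cases, when 0.7% and 3.66% of all tested genes were called. With both agents against control 0 rose and 3 fell, SPDEF, SCGB2A2 and KRT19, when 2.82% of all genes were called. KRT19, a keratin of simple epithelium, had a change there of -0.82 ± 0.17 (SE; adjusted p = 0.0133, limma), and the calls of KRT19 and SCGB2A2 were each lost in 4 of the 11 fits without 1 array. SCGB2A2, which encodes mammaglobin, read 3.61, 3.65 and 3.18 with TNF, 3.98 and 3.61 with apigenin, and 4.18, 3.87 and 4.11 with both, against 5.30, 4.64 and 5.32 in control. FOXA1, AZGP1, PIP and SCGB1D2 were not called. Neither SPDEF nor SCGB2A2 set TNF 1 apart from the other TNF arrays the way both CYP4Z1 probe sets did. The luminal genes and the transcription factors were listed with earlier results of these data known, so their counts are not read as a trait of these genes. The part of the luminal genes in the CYP4Z1 levels was not tested. CDH5, an endothelial cadherin used here as a marker of that cell type, rose with TNF by 0.92 ± 0.19 (SE; adjusted p = 0.0448, limma) and fell with apigenin by 1.03 ± 0.22 (adjusted p = 0.0178), calls lost in 7 and 3 of the 11 fits without 1 array. It also fell in TNF plus apigenin against TNF, by 1.25 ± 0.19 (adjusted p = 0.00451), a call kept in all 11 fits, while VWF of the same cells stayed at 1.51 to 2.01.

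The 5 tested genes whose values followed CYP4Z1 most closely over the 11 arrays, by Pearson correlation, were RNF10 (r = 0.954), TSC22D3 (0.947), KRT18 (0.943), S100A14 (0.941) and YBX3P1 (0.933). These are descriptions over arrays that share groups, so no p-value is given. After quantile normalization of the arrays 0 of the 5 stayed among the first 5, and without apigenin 1 there were 4. For CYP4X1 they were TNFSF10 (0.987), CAMK2N1 (0.977), CADM4 (0.968), MUC1 (0.967) and KIF20A (0.966), of which 3 stayed under either alternative. TNFSF10, the death ligand TRAIL, read 8.40, 8.33 and 8.0 with TNF, 7.09 and 7.10 with apigenin, and 7.31, 7.22 and 6.82 with both, against 8.44, 8.51 and 8.31 in control. TNFSF10, like CYP4X1, was lower on every array with apigenin than on any without it. That split follows largely from its choice by correlation with CYP4X1 over the same arrays. For CYP4V2 they were TMEM9B (0.939), MED20 (0.938), IER5 (0.935), ZNF398 (0.934) and CHAF1B (0.933), of which 4 stayed without apigenin 1 and 3 after quantile normalization.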

How the data were processed

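RNA of MDA-MB-468 cells was measured on 11 arrays in 4 groups, taken from the sample titles. The authors deposited 1 log2 value per array for each of 53617 probe sets, and the submitters' processing notes name Affymetrix Expression Console. Its version, the summarisation, the normalization and the build behind the annotation were not stated in those notes or the labels. The log base was read from the range, 0.38 to 12.31. The titles speak of triplicates, and the labels do not say why apigenin has 2 arrays. The number of arrays limits the precision.

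Of the probe sets, 23871 carried 1 gene symbol, 1842 several and 27904 none in the annotation used; 22569 matched RefSeq (GRCh38.p14) by gene number and 90 symbols were updated. The brightest probe set stood for a gene with several. Tests were run on genes with 2 or more arrays at 2.53 or above, the median of probe set means. With limma 3.58.1 in R 4.3.3, lmFit took a mean for each of the 4 groups from the 11 arrays, unscaled, and eBayes moderated the variances. P-values are two-sided, adjusted by Benjamini-Hochberg over 15865 genes, and called under 0.05; errors of changes are moderated standard errors and intervals are 95%. The code was tested on simulated data.

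The genes named were all members, called genes of the lists (other P450 genes, electron donors and haem synthesis, arachidonic acid, omega-oxidation, transcription factors, flanking genes, cell markers) and the 5 genes most correlated with CYP4Z1, CYP4X1 and CYP4V2; others are given as context or were named after their values were seen. Members and lists were chosen with earlier results of these data known. Alternatives were quantile normalization, a median shift, array weights, 2 other filters, another choice of probe set, eBayes with trend and robust, a replicate block, each array left out, and fits of only the groups compared. A fit with 1 row per probe set and one without apigenin 1 and control 2 together were added after seeing the data. Promoter sequences are from RefSeq, which listed a window for 6 of the 7 members.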

Additional observations from a re-analysis of the deposited data

Results flagged for a closer look

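The probe set annotated to CYP4F2 and CYP4F3, which names 2 genes and so enters none of the comparisons of single genes, was higher with apigenin alone than in control by 2.0 on the log2 scale. Both apigenin arrays, at 3.55 and 4.04, lay above the control arrays, at 1.35, 1.66 and 2.38. All 3 control arrays lie below 2.53, so this difference depends on values near background, and it is given without a test because the probe set was singled out for its values. Leaving out 1 array at a time gave differences of 1.76 to 2.29, which describe the same selected values and do not measure how stable they are. With TNF plus apigenin the probe set read 1.26, 1.41 and 1.66.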

How the results depend on the processing

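Over 30 changes of members and 653 refits, 592 kept direction and side of the threshold, 44 kept the direction but lost the call, and 17 turned direction. The 30 leave out CYP4F3, CYP4F11 and CYP4V2 in TNF plus apigenin against apigenin and in the interaction. Turns of direction in those changes were not counted. The 24 changes of other genes called kept their direction in every refit, and lost the call in 88 of them. The counts over members, those above and those that follow, include CYP4Z1, whose values led to the choice of the family. Its calls and how far they hold are a description only. The 1 member called with TNF is CYP4Z1; that count became 0 under quantile normalization, without a filter, with trend and robust eBayes, with only the groups compared, without apigenin 1 and control 2 together, and with 1 row per probe set, and was 0 to 1 without single arrays (lost without any control array, TNF 2 or TNF 3). The 3 called with apigenin, CYP4Z1, CYP4X1 and CYP4B1, became 1 under quantile normalization, array weights, only the groups compared, and without apigenin 1 and control 2 together, and 0 with 1 row per probe set, and were 0 to 3 without single arrays (0 without apigenin 1, 1 without control 1). Over the 22 alternatives, the apigenin call was lost in 7 for CYP4X1 and in 8 for CYP4B1. The 1 called in TNF plus apigenin against TNF became 0 with only the groups compared and with 1 row per probe set, and was 0 to 1 without single arrays. With 1 row per probe set more features were tested, and the variances were moderated over those features. Why calls were lost in any of these refits was not tested. The same 3 were called with both against control, and that count stayed at 2 or 3 throughout. The directions that turned belong to changes that were not called. CYP4F11 with TNF was 0.03 under quantile normalization and under a median shift, 0.12 without control 1 and 0.01 without TNF 3, and lay between -0.13 and 0.12 over single arrays left out; with apigenin it was 0.13 without apigenin 1 and 0.02 without apigenin 1 and control 2. Leaving out single arrays took it from -0.77 to 0.13. CYP4F3 with apigenin was 0.26 without apigenin 2 (-0.75 to 0.26 over single arrays), and CYP4V2 was -0.08 (-0.08 to 0.68). CYP4F3 in TNF plus apigenin against TNF was 0.02 without TNF 1 or without TNF plus apigenin 1. In TNF plus apigenin against apigenin, CYP4X1 was 0.02 with array weights, 0.08 with the replicate block and 0.07 without TNF plus apigenin 3 (-0.11 to 0.07 over single arrays), and CYP4B1 was -0.03 after a median shift. The CYP4X1 interaction was -0.18 under quantile normalization, -0.14 after a median shift and 0 to 2 decimals without TNF 3. Whether replicate numbers pair the arrays was not settled. Deviations of same-numbered arrays correlated at -0.24 to 0.28, over 0.1 in 4 of 15 pairs. Those of differently numbered arrays correlated at -0.39 to 0.19, over 0.1 in 8 of 30 pairs. Of the 11 arrays, 6 correlated best with an array of their own number. The replicate block left the members called at 1 with TNF, 3 with apigenin, 1 in TNF plus apigenin against TNF and 3 against control. Over all genes, calls ranged over the alternatives from 60 to 221 with TNF (111 as reported), 84 to 1290 with apigenin (581), 85 to 511 in TNF plus apigenin against TNF (169), 206 to 1270 against control (447), 16 to 598 against apigenin (91) and 0 to 10 for the interaction (4). Values near 2.53 limit what can be seen of CYP4F3, CYP4F11, CYP4F12 and the lowest CYP4Z1 arrays.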
